A study of Mus musculus with 18 samples.

Results

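The comparison asked how the steady-state transcriptome of immature thymic XCR1+ dendritic cells (DCs) differed between wild-type mice and mice without IFNAR1, a chain of the receptor for type I interferons. It used 6 of the 18 arrays of the series, 3 arrays titled CCR7- XCR1+ tDC_Ifnar1-KO and 3 titled CCR7- XCR1+ tDC_CTRL, and described 19190 of the 19938 genes tested, those not on chromosomes X and Y. The Ifnar1-KO and CTRL mice were both of strain B6, kept free of specific pathogens (SPF) and untreated, and the CTRL mice were wild-type. The cells were sorted from thymus as CD11c+ MHCII+ XCR1+ CD8a+ CD117+ cells that lacked CD11b, CD172a and CCR7. The sources used here do not give the allele of the knockout, the ages and sexes of the mice, or whether each array came from separate mice. The p-values therefore cover the spread between arrays alone, which may be technical. Germ-free (GF) wild-type B6 mice, untreated and sorted in the same way, served as the other wild-type group of 3 CCR7- arrays, and the CCR7+ arrays of Ifnar1-KO and CTRL mice gave the same genotype comparison in mature cells.

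Type I interferons (IFN-alpha and IFN-beta) bind a receptor made of IFNAR1 and IFNAR2. The kinases JAK1 and TYK2 then pass the signal to transcription factors, IRF9 among them, that bind interferon stimulated response elements in the promoters of interferon stimulated genes. Many of these genes are expressed at a low tonic level without infection, and the medulla of the thymus is known as a site of constitutive interferon production. Type II and type III interferons use other receptors but share part of this machinery, so a cell without IFNAR1 can still express many of the same genes.

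No gene passed in the comparison of Ifnar1-KO with CTRL CCR7- cells (limma, Benjamini-Hochberg adjusted p under 0.05; 0 of 19190 genes, 0%). The lowest adjusted p values were those of Klra5 (0.0574) and the interferon stimulated gene Ifi27l2a (0.0665). Both passed, with an adjusted p of 0.038 for Ifi27l2a, when background and replicate number were a random block. That block takes up the shared deviation of CCR7- and CCR7+ arrays of the same number. Over 18 alternative limma fits Ifi27l2a passed in 6, with an adjusted p from 0.00168 to 0.714, and Klra5 passed in 5 of 17. Of 92 type I interferon stimulated genes, 8 (8.7%) read lower on all 3 knockout arrays than on any of the 6 wild-type CCR7- arrays. This group of 8, among them Ifi27l2a, Cxcl10, Oas1a, Oas3 and Ifi27, was lower than CTRL by 1.26-fold (Rtp4) to 2.80-fold (Cxcl10). Of all genes, 143 (0.745%) read lower in this way and 289 (1.51%) higher. Among genes with a mean log2 intensity of at least 6 over the 18 arrays these shares were 1.42% and 0.291%. Ifi27l2a and Cxcl10 were picked beforehand, and without them the count was 6 of 90. Most other interferon stimulated genes, such as Irf7, Usp18, Ifit3 and Bst2, differed less from CTRL. Genes that mark DC maturation also read lower than in CTRL, but in the list of 35 such genes only Tnfsf9 also lay below every GF array. All changes below are differences of log2 intensity, Ifnar1-KO minus CTRL, ± the standard error (SE) of limma with n = 3 arrays per group.

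Without adjustment, 1334 genes (6.95%) had a p under 0.05, of which 417 were lower (2.17%) and 917 higher (4.78%) in the knockout. The 3 knockout arrays lay below all 3 CTRL arrays for 841 genes (4.38%) and above them for 2110 (11%). The direction went with the level of the gene. Over all genes the median change was 0.04 and 38.6% of changes were below 0. Among the 6196 genes with a mean of at least 6 over the 18 arrays, a split chosen after the values were seen, the median was -0.09 and 67.3% were below 0, while among the 12994 dimmer genes the median was 0.07 and 24.8% were below 0. Counts over lists of well expressed genes are therefore read against the first of these groups as well. The median half-width of the 95% interval of a change was 0.27, and the interval lay within a log2 change of 1 in either direction for 93.3% of genes.

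The libraries were checked before the lists were read. Ifnar1-KO CCR7- replicate 2 stood apart: its correlation with the other arrays of its group was 0.973 and 0.974, against 0.993 between those arrays and 0.993 to 0.995 within CTRL. The XCR1+ DC markers were high throughout, with a mean over 12 markers of 10.16 to 10.22 on CTRL and 10.03 to 10.22 on Ifnar1-KO arrays. Of the markers of other cells, 19 thymocyte genes averaged 4.55 to 4.91 on CTRL arrays and 4.66, 5.24 and 4.75 on Ifnar1-KO replicates 1, 2 and 3. Of the 19, 16 had a change above 0 and 3 below 0 (15.8%). Below 0 were 38.6% of all genes and 24.8% of those with a mean under 6. A mean of at least 6 was reached by 5 of the 19. Their largest difference was in Rag1, an enzyme of antigen receptor rearrangement, at 4.17 to 4.56 in CTRL and 4.34, 6.78 and 4.67 in Ifnar1-KO. On Ifnar1-KO replicate 2 the T cell genes Cd8b1 (6.81) and Cd3e (6.40) also lay above CTRL (5.33 to 6.20 and 5.67 to 5.70), while Cd3d (5.41) lay within it (4.71 to 5.61). Markers of thymic epithelium and stroma averaged 4.74 to 4.80 in CTRL and 4.89 to 4.95 in Ifnar1-KO (12 genes), and those of neutrophils 3.87 to 3.92 and 4.02 to 4.03 (9 genes). Both lists hold only genes with a mean under 6, a level at which most genes read higher in the knockout. Of the stroma markers 8.33% had a change below 0, and 25% were higher at an unadjusted p under 0.05. For the neutrophil markers these shares were 0% and 11.1%, and for all genes with a mean under 6 they were 24.8% and 6.71%. The marker lists of B cells, NK cells, macrophages, plasmacytoid DCs and CD172a+ DCs had median changes between -0.06 and 0.10. The part of any of these in the values below was not tested, and values without replicate 2 of the knockout are given for the lists and genes where it mattered most. Y-linked Eif2s3y read 3.36 to 3.47 in CTRL, 5.22 to 6.83 in Ifnar1-KO and 7.71 to 8.26 in GF CCR7- arrays, and Xist read 8.39 to 9.63, 6.61 to 8.91 and 3.99 to 4.13. The sex makeup of the samples thus differed between all 3 groups, and sex and genotype cannot be told apart in this comparison. The Ifnar1-KO mean lay between those of CTRL and GF in both genes, and the Xist ranges of Ifnar1-KO and CTRL overlapped. In bulk arrays of this kind, fewer cells that express a gene and less RNA per cell cannot be told apart.

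The targeted gene was read first. Ifnar1 (probeset 10436849, chromosome 16) had 8.09, 8.06 and 8.09 on CTRL arrays, 8.07, 7.27 and 7.66 on Ifnar1-KO arrays and 7.94, 8.16 and 7.91 on GF arrays. Replicate 1 of the knockout lay inside the wild-type range, and the change was -0.41 ± 0.28 (limma adjusted p 0.687), or -0.22 without replicate 2. In CCR7+ cells it read 7.61, 6.07 and 6.96 in Ifnar1-KO and 7.61 to 7.82 in CTRL. The labels do not say which exons the allele disrupts or where the probes lie, so this value is no check of the genotype. Ifnar2, the other chain of the receptor and a neighbour on chromosome 16, read 9.95, 9.72 and 9.70 in CTRL, 9.65, 9.47 and 9.39 in Ifnar1-KO, and 9.68 to 9.85 in GF. Its knockout arrays lay below all 6 wild-type arrays with a change of -0.29 ± 0.12 (adjusted p 0.681). Of 30 genes around Ifnar1 on chromosome 16, 13 had a change below 0 (43.3%; 38.6% of all genes) and the median was 0.05.

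The printed promoters belong to the 4 genes of the type I interferon stimulated list with the lowest changes whose windows hold the response element (GAAA, any 2 bases, GAAA, on either strand). No windows were searched for 18 members of that list, among them Ifi27l2a, Mx1, Il15, Mx2, Ifi27, Parp14, Oas2 and Rtp4. The promoters are shown because the element is where the factors downstream of IFNAR1 can bind. Each runs 5′ to 3′ on the coding strand and ends at the base before the gene start, with the element in capitals (RefSeq, GRCm38.p6). All 4 genes lie on the minus strand, Cxcl10 at chr5:92348890-92349139, Oas1a at chr5:120907526-120907775, Oas3 at chr5:120777660-120777909 and Slfn9 at chr11:82991831-82992080.
Cxcl10: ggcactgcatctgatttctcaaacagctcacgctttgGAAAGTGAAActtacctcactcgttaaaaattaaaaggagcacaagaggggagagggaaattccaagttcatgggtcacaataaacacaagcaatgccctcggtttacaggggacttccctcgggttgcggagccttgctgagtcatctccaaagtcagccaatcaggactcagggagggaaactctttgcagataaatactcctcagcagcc
Oas1a: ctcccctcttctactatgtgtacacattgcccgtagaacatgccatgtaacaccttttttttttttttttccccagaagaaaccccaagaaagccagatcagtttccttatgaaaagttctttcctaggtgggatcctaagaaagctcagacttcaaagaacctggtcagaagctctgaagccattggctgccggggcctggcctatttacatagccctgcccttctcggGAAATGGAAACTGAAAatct
Oas3: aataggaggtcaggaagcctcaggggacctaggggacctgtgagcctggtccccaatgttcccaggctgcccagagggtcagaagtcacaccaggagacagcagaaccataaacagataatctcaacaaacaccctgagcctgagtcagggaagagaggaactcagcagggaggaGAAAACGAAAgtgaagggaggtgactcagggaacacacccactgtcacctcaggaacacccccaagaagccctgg
Slfn9: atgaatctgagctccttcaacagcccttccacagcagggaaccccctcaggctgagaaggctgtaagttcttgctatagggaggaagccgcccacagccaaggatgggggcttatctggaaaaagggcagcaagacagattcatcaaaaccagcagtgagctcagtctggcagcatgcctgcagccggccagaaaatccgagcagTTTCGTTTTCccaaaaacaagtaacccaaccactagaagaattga
In Cxcl10 the element begins 213 bases before the start, in Oas3 75 bases and in Slfn9 45 bases before it, the last on the opposite strand. Oas1a has a pair of overlapping elements that begin 20 and 14 bases before the start. In windows of 250 bases before to 50 after the start, the element was found in 587 of the 15010 genes with a window (3.91%), in 33 of 74 type I interferon stimulated genes (44.6%) and in 3 of 24 mature DC genes (12.5%). The gamma activated site (TTC, any 3 bases, GAA, which reads the same on both strands) was found in 9.01% of all windows and in 12 of the 74 (16.2%). Within the interferon list the change did not sort clearly by the element: the 33 genes with it had a median of -0.12 with 25 below 0, and the 41 without it a median of -0.05 with 24 below 0. A match of letters is a description and shows no binding.

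Ifi27l2a (probeset 10402347, chromosome 12), which encodes a small membrane protein strongly induced by type I interferon, was the brightest gene of the group. It read 11.47, 11.77 and 11.71 on CTRL arrays, 10.34, 10.93 and 10.33 on Ifnar1-KO arrays, and 11.81, 11.87 and 12.11 on GF arrays. All 3 knockout arrays lay below all 6 wild-type ones, and replicate 2 was the highest of the 3. The change from CTRL was -1.12 ± 0.17, or 2.17-fold lower (95% interval -1.48 to -0.76; adjusted p 0.0665, just over the threshold). Ifi27l2a and Cxcl10 were chosen to mark this comparison with earlier results of these data known, so their direction against CTRL is a description. Against GF, Ifi27l2a fell by 1.39 ± 0.17 (adjusted p 0.0156), the only gene called in that comparison (1 of 19190, 0.00521%), although the knockout arrays are the same ones. Against CTRL it passed in 6 of the 18 alternative fits, among them the fit without Ifnar1-KO CCR7- replicate 2 (-1.32, adjusted p 0.0149), and the adjusted p ranged from 0.00168 to 0.714. Against GF the call ended when only the groups compared or only the 9 CCR7- arrays were fitted. It also ended in 4 of the 6 fits that left out 1 array, with a lowest adjusted p of 0.174 without Ifnar1-KO replicate 1, 0.0566 without Ifnar1-KO replicate 3, 0.0627 without GF replicate 2 and 0.175 without GF replicate 3. Its neighbour and close relative Ifi27l2b read 4.56 to 4.83 on all 9 CCR7- arrays and had a change of 0.02 ± 0.10.

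Cxcl10 (probeset 10531415, chromosome 5) encodes a chemokine that attracts T cells through CXCR3. It read 7.49, 7.98 and 8.17 in CTRL, 6.71, 5.96 and 6.51 in Ifnar1-KO, and 7.36, 6.98 and 7.60 in GF. The knockout arrays were again the lowest of the 9. The change was -1.48 ± 0.36, or 2.80-fold lower (95% interval -2.25 to -0.72; adjusted p 0.681), and -0.92 against GF (adjusted p 0.999). Cxcl9, which binds the same receptor, read 11.42, 11.52 and 11.47 in CTRL and 11.38, 11.52 and 11.37 in Ifnar1-KO. The groups overlapped in Cxcl9, with a change of -0.05 ± 0.36; whether the genes differ in their change was not tested.

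The OAS enzymes make oligoadenylates that activate RNase L against viral RNA. Oas1a (probeset 10533256) read 8.04, 8.04 and 8.87 in CTRL, 7.51, 7.50 and 7.27 in Ifnar1-KO, and 8.57, 8.51 and 8.64 in GF, for a change of -0.89 ± 0.30 (adjusted p 0.681). Oas3 read 5.99, 6.19 and 6.26 in CTRL, 5.62, 5.59 and 5.57 in Ifnar1-KO, and 6.58, 6.22 and 6.22 in GF, for a change of -0.55 ± 0.21. For both enzymes the 3 knockout arrays were close together and below every wild-type array. Oas2 had -0.42 ± 0.14 against CTRL but -0.12 against GF, and Oas1b and Oasl1 each had 0.01. Ifi27, a relative of Ifi27l2a, read 6.65, 6.81 and 6.79 in CTRL, 6.37, 6.20 and 6.16 in Ifnar1-KO, and 6.87, 7.0 and 6.76 in GF. Its change was -0.51 ± 0.17, and -0.63 against GF. Rtp4, a chaperone of membrane receptors that is induced by interferon, was dimmer, at 4.73, 4.80 and 4.72 in CTRL, 4.29, 4.58 and 4.37 in Ifnar1-KO and 4.84 to 5.39 in GF.

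**Figure D1:**
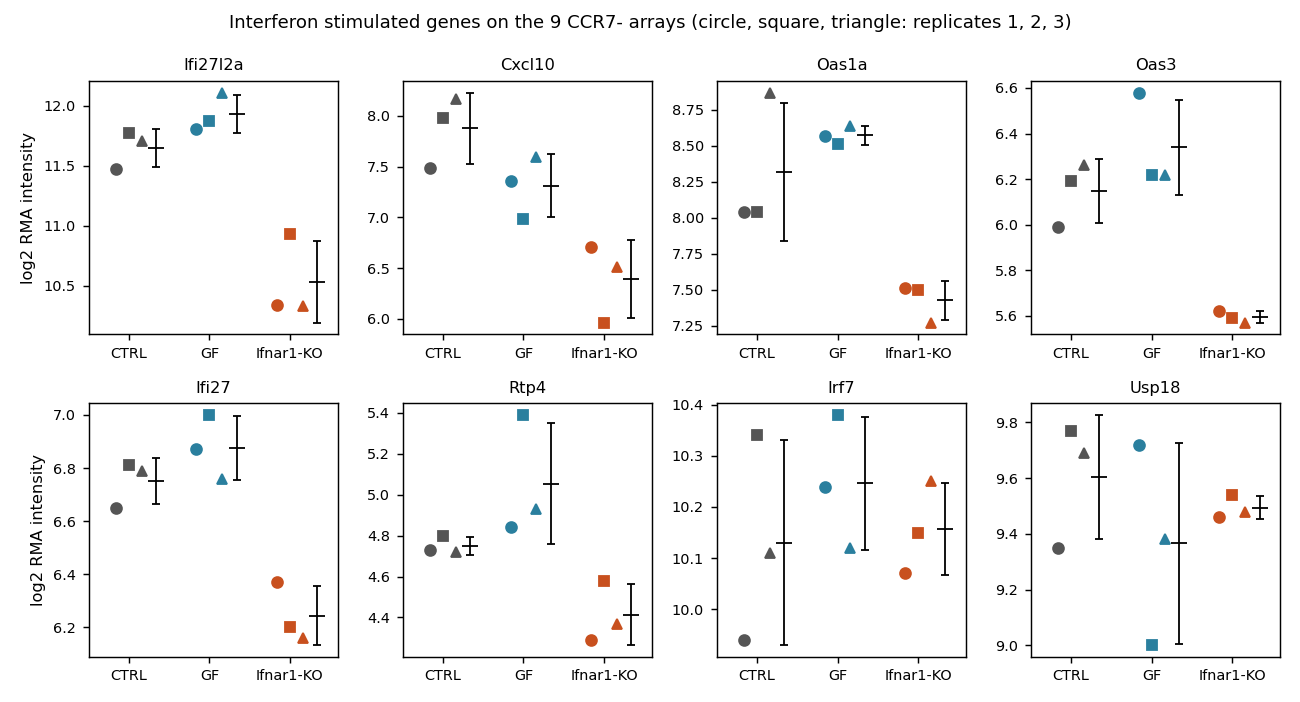
Log2 RMA intensity of 8 interferon stimulated genes on the 9 CCR7- arrays, in CTRL, GF and Ifnar1-KO mice; circles, squares and triangles are replicates 1, 2 and 3, and the black mark with its bar is the mean ± SD of 3 arrays. Each panel has its own vertical scale. In Ifi27l2a, Cxcl10, Oas1a, Oas3, Ifi27 and Rtp4 the Ifnar1-KO arrays are below all 6 others, and in Irf7 and Usp18 the groups overlap.

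Across the list of 92 measured type I interferon stimulated genes, 0 passed. At an unadjusted p under 0.05, 11 were lower (12%) and 1 was higher (1.09%), and 65 (70.7%) had a change below 0. The median of the list was -0.10, close to the -0.09 of all genes with a mean of at least 6, and 67.3% of those genes were below 0. The knockout arrays lay below all 3 CTRL arrays for 15 members (16.3%; 4.38% of all genes and 8.55% of those with a mean of at least 6). They lay below all 6 wild-type arrays for 8 members (8.70%; 0.745% of all genes and 1.42% of the brighter ones): Ifi27l2a, Cxcl10, Ifi27, Oas1a, Oas3, Rtp4, Ms4a6b and Gbp3. Without Ifi27l2a and Cxcl10, which were picked beforehand, this count was 6 of 90. Ms4a6b was separated by less than the printed digits, at 7.37 on both Ifnar1-KO replicate 3 and GF replicate 2. The list was drawn up with earlier results of these data known, so no test was made of it. Without Ifnar1-KO CCR7- replicate 2 its median was -0.03, with 55 members below 0, and that of the brighter genes was -0.04. The largest differences were thus in a few members, and the median of the list was close to that of genes with a mean of at least 6. Only 71 of the 92 members are in that group, so it is not matched to the list in brightness. Among the dimmer genes 24.8% of changes were below 0.

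Several members with low values against CTRL were low in GF mice as well. Cd274 (PD-L1, a ligand that restrains T cells) read 6.40, 6.42 and 6.93 in CTRL, 5.56, 4.93 and 5.61 in Ifnar1-KO, and 6.61, 4.87 and 5.24 in GF. Its knockout arrays lay below CTRL (-1.22 ± 0.36) but among the GF arrays (-0.21). Il15, a cytokine that sustains memory CD8 T cells and NK cells, had -0.73 ± 0.20 against CTRL and -0.07 against GF, and Epsti1 had -0.59 ± 0.18 and -0.13. Mx1, a GTPase of the interferon list, spread widely: 6.79, 7.67 and 7.76 in CTRL, 7.23, 5.70 and 6.77 in Ifnar1-KO and 6.95, 5.52 and 5.88 in GF. It had -0.84 ± 0.66 against CTRL (-0.41 without Ifnar1-KO replicate 2) and 0.45 against GF. Over the list the median was 0.02 against GF, with 42 of 92 members below 0 (45.7%; 44.2% of all genes and 55.8% of those with a mean of at least 6). Ms4a6b, a membrane protein of the MS4A family, was not low in GF: it had 7.59, 7.69 and 7.42 in CTRL, 6.89, 5.99 and 7.37 in Ifnar1-KO and 7.93, 7.37 and 7.74 in GF. Its change was -0.82 against CTRL and -0.93 against GF, or -0.44 and -0.55 without replicate 2 of the knockout.

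By role, 20 of 25 antiviral effectors (IFIT, OAS, MX and others) had a change below 0 (80%), with a median of -0.15. The share was 38.6% of all genes and 67.3% of those with a mean of at least 6, which 17 of the 25 have. At an unadjusted p under 0.05, 3 were lower, Oas1a, Oas2 and Oas3 (12%; 2.17% of all genes and 3.6% of the brighter ones). Ifit1 had -0.38 ± 0.27, Ifit3 -0.27, and Rsad2, a viral replication inhibitor, 0.00. The GTPases of the GBP and IRG families attack vacuoles of intracellular microbes and answer mainly to interferon gamma. Of 10 measured, 6 were below 0 (60%; 38.6% of all genes and 67.3% of the brighter ones), with a median of -0.25. A mean of at least 6 was reached by 5 of the 10. At an unadjusted p under 0.05, 3 were lower (30%; 2.17% of all genes and 3.6% of the brighter ones). Gbp4 read 4.88, 5.25 and 5.58 in CTRL and 4.08, 4.88 and 4.38 in Ifnar1-KO (-0.79 ± 0.29), and Gbp5 read 5.55, 5.88 and 5.55 against 5.19, 4.62 and 4.96 (-0.74 ± 0.25). Against GF these had -0.20 and -0.17. Family members share sequence, so probesets of GBP, OAS and Schlafen genes may also read their relatives. Isg15, Gbp2, Igtp and Ifi47 had no probeset with exactly 1 symbol and were not analysed here.

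Of 9 chemokines, 6 were below 0 (66.7%; 38.6% of all genes and 67.3% of the brighter ones), and 5 of the 9 have a mean of at least 6. After Cxcl10 the lowest were the monocyte attractant Ccl2 at -1.22 ± 0.48 and Ccl3 at -1.0 ± 0.57, whose CTRL arrays were themselves far apart (5.53 to 7.16 and 7.76 to 9.92). Among 17 members of the PARP, TRIM and Schlafen families, Slfn1, of a family linked to growth arrest of T cells, read higher in the knockout: 9.54, 9.95 and 9.76 in CTRL, 10.30, 10.78 and 10.28 in Ifnar1-KO, and 10.15, 9.98 and 10.08 in GF. Its knockout arrays lay above all 6 wild-type arrays, with a change of 0.70 ± 0.28 (adjusted p 0.681). Slfn9, whose promoter is printed above, read 6.18, 4.78 and 6.80 on the knockout arrays and 6.27 to 6.46 in CTRL. Its change of -0.45 ± 0.39 rested on replicate 2 and turned to 0.11 without it. Genes of ISG15 conjugation (5) and of the DNA-sensing PYHIN family (7) had medians of -0.11 and -0.09, none at an unadjusted p under 0.05. The DNA sensor Aim2 had 9.07, 9.06 and 9.05 in CTRL and 8.97, 7.63 and 8.85 in Ifnar1-KO, so that its change of -0.58 became -0.15 without replicate 2.

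**Figure D2:**
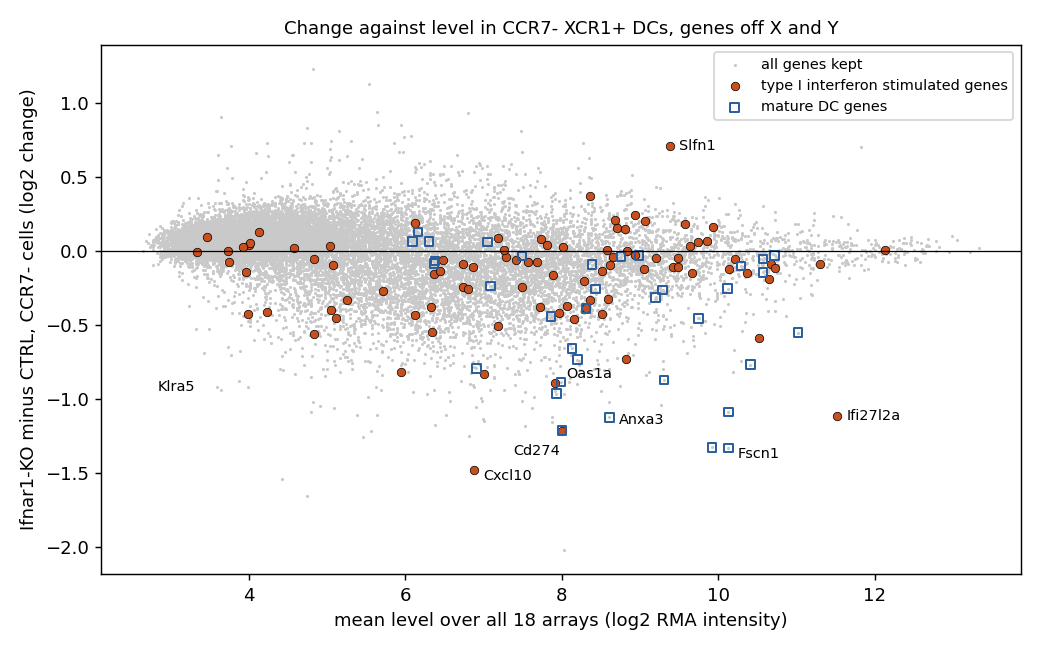
Log2 change, Ifnar1-KO minus CTRL in CCR7- cells, against the mean log2 RMA intensity over all 18 arrays; each point is a gene off chromosomes X and Y, with type I interferon stimulated genes as filled circles and mature DC genes as open squares. Dim genes lie mostly above 0 and bright genes below it (medians 0.07 and -0.09 on either side of a level of 6), Ifi27l2a stands out among the brightest genes at -1.12, and Slfn1 lies above 0 at 0.70.

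The genes upstream of the interferon response showed small values. The 16 interferon genes measured averaged 4.11 to 4.26 per array on Ifnar1-KO and 4.14 to 4.23 on CTRL arrays, below the median intensity of every array (4.64 to 4.77 on these 6), and their median change was 0.04. Of 15 receptors, kinases and STATs 12 were below 0 (80%, against 67.3% of the brighter genes), with a median of -0.19 against CTRL, 0.06 against GF and -0.11 without replicate 2. Il10rb, a receptor chain of type III interferon and IL-10, had -0.36 ± 0.22, Stat3 had -0.31 ± 0.19 and Stat2 -0.14 ± 0.34. Without replicate 2 these were -0.23, -0.11 and -0.02. Irf7 amplifies interferon production and is itself interferon stimulated. It read 9.94, 10.34 and 10.11 in CTRL, 10.07, 10.15 and 10.25 in Ifnar1-KO and 10.24, 10.38 and 10.12 in GF. The groups overlapped, with a change of 0.03 ± 0.25 whose sign turned when arrays were centred on their medians. Irf1, which also answers to interferon gamma, had -0.59 ± 0.25 against CTRL and 0.18 against GF, while Irf8, the lineage factor of these cells, had a change of 0.00 ± 0.14.

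Of 17 nucleic acid sensors and adaptors 14 were below 0 (82.4%, against 67.3% of the brighter genes). The lowest were Aim2 (above) and Cgas, which makes the messenger that activates STING, at -0.50 ± 0.20, or -0.26 without replicate 2. Of 13 brakes of the pathway 9 were below 0 (69.2%; 38.6% of all genes and 67.3% of the brighter ones), with a median of -0.11. Usp18, which blocks IFNAR2 signalling and is itself interferon stimulated, had 9.35, 9.77 and 9.69 in CTRL and 9.46, 9.54 and 9.48 in Ifnar1-KO, a change of -0.11 ± 0.24 (95% interval -0.62 to 0.40). None of these lists had a member that passed. The interval of the change lay within 1 in either direction for 74 of the 92 type I interferon stimulated genes (80.4%), so a change of 1 in at least 1 direction was inside the interval of the other members.

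DC maturation genes, which rise when these cells become CCR7+, also read lower in the knockout than in CTRL. Of 35 genes, 31 (88.6%) were below 0 and 11 were lower at an unadjusted p under 0.05 (31.4%), with a median of -0.27. All genes gave 38.6% and 2.17% for these shares. Genes with a mean of at least 6 gave 67.3% and 3.6%, and dimmer genes 24.8% and 1.49%. All 35 have a mean of at least 6 over the 18 arrays, which include the CCR7+ arrays, where maturation genes are high. Some are dimmer on the arrays compared, such as Tnfrsf4, with a mean of 5.67 in CTRL CCR7- and 10.72 in CTRL CCR7+ cells. Neither group of genes is thus matched to the list in its level on those arrays. None passed; the lowest adjusted p was 0.299, of Anxa3. Fscn1, the actin bundler of mature DC dendrites, read 8.48, 8.14 and 8.65 in CTRL, 6.41, 8.26 and 6.60 in Ifnar1-KO, and 8.52, 6.93 and 6.69 in GF (-1.33 ± 0.45). Il12b, the shared subunit of IL-12 and IL-23, read 8.97, 8.99 and 9.63 in CTRL, 8.04, 7.55 and 8.01 in Ifnar1-KO, and 9.24, 6.63 and 6.80 in GF (-1.33 ± 0.50). Ccr7, on whose protein the cells were gated, read 9.03, 8.98 and 8.95 in CTRL, 7.85, 8.54 and 7.29 in Ifnar1-KO, and 9.09, 7.25 and 7.77 in GF (-1.09 ± 0.35). In all 3 genes GF replicate 1 read with or above CTRL and the other GF arrays were low. In Fscn1 and Ccr7 the knockout array nearest to CTRL was replicate 2.

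Anxa3, a phospholipid binding annexin, had -1.13 ± 0.21, the OX40 gene Tnfrsf4 -0.89 ± 0.26 and Nudt17 -0.74 ± 0.25. Against GF the median of the list was -0.04, and GF minus CTRL, which shares the CTRL arrays and called 0 genes (0%; 1211 at an unadjusted p under 0.05, 6.31%), had a median of -0.31. The knockout arrays lay below all 3 CTRL arrays for 12 of the 35 (34.3%; 4.38% of all genes and 8.55% of those with a mean of at least 6). They lay below all 6 wild-type arrays only for Tnfsf9, the ligand of the costimulator 4-1BB (2.86%; 0.745% of all genes and 1.42% of the brighter ones). The mean of the list was 7.16 to 7.37 on CTRL arrays, 6.71, 7.02 and 6.71 on Ifnar1-KO arrays and 7.39, 6.47 and 6.56 on GF arrays. Without Ifnar1-KO CCR7- replicate 2 its median was -0.40 against CTRL and -0.09 against GF. Ccr7 moves with the list, and the part of the CCR7 gate in these values was not tested.

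**Figure D3:**
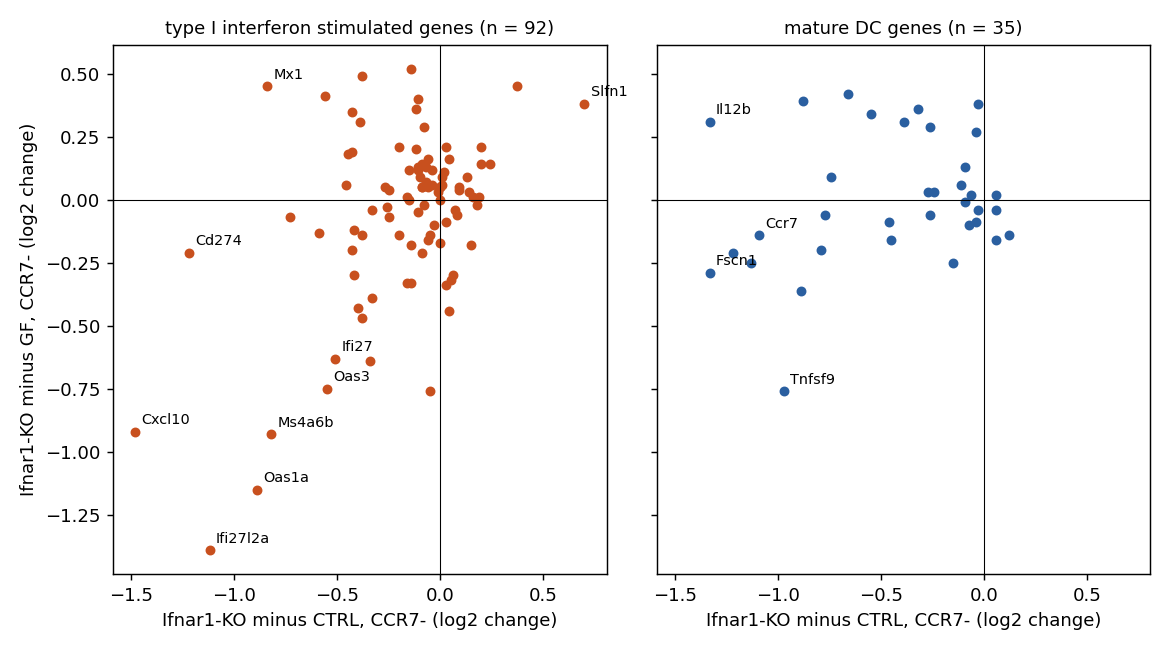
Log2 change of each gene in Ifnar1-KO minus CTRL (horizontal) and Ifnar1-KO minus GF (vertical) CCR7- cells, for 92 type I interferon stimulated genes and 35 mature DC genes. Both axes use the same 3 knockout arrays, so the points are a description of how the members compare with each wild-type group. Ifi27l2a, Cxcl10, Oas1a, Ms4a6b, Oas3 and Ifi27 are low on both axes, and most mature DC genes are low on the horizontal axis while lying around 0 on the vertical one (medians -0.27 and -0.04).

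**Figure D4:**
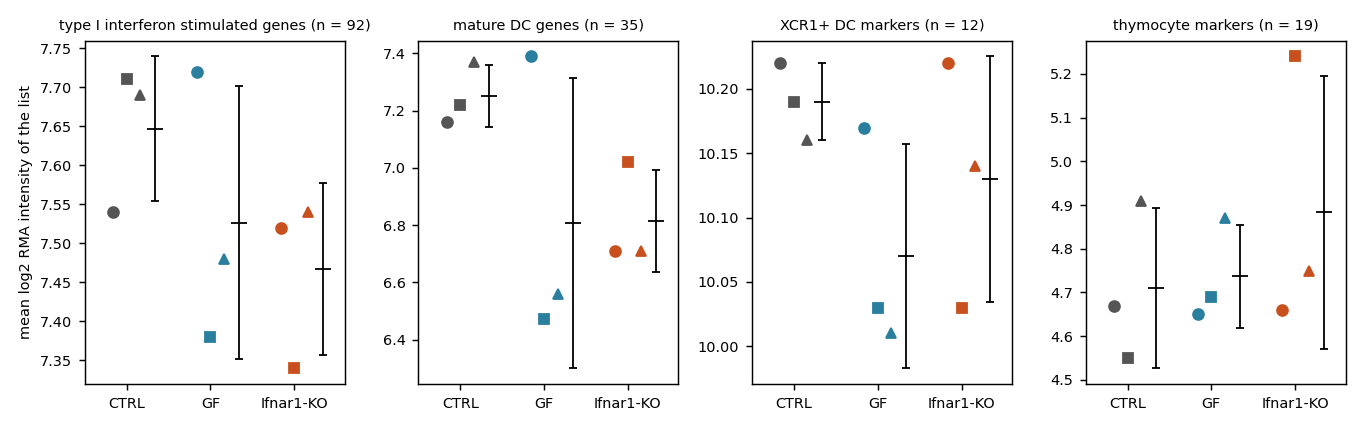
Mean log2 RMA intensity of 4 gene lists on each of the 9 CCR7- arrays, with the mean ± SD of 3 arrays in black and replicates 1, 2 and 3 as circles, squares and triangles. Each panel has its own vertical scale. GF replicate 1 reads with CTRL in mature DC genes (7.39) and the other GF arrays read with or below Ifnar1-KO, and Ifnar1-KO replicate 2 has the highest mean of thymocyte markers (5.24).

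Immediate early and heat shock genes, which answer within minutes to stimulation or stress, had a median as low as that of the mature DC genes. Of 22 such genes 17 were below 0 (77.3%), with a median of -0.29 against CTRL, -0.25 without Ifnar1-KO replicate 2 and -0.23 against GF. At an unadjusted p under 0.05, 4 were lower (18.2%, against 2.17% of all genes and 3.6% of the brighter ones) and 1 higher, and none passed. The knockout arrays lay below all 6 wild-type arrays for 2 of them (9.09%, against 0.745% of all genes and 1.42% of the brighter ones), Jun and Dnajb1. Jun, a subunit of the AP-1 factor, read 9.44, 10.10 and 9.67 in CTRL, 9.21, 9.08 and 9.38 in Ifnar1-KO, and 9.74, 9.55 and 9.48 in GF (-0.51 ± 0.30). Dnajb1, a cochaperone of HSP70, read 7.87, 8.72 and 8.05 in CTRL, 7.69, 7.70 and 7.86 in Ifnar1-KO, and 8.0, 7.94 and 8.0 in GF (-0.46 ± 0.17). The lowest changes were those of the orphan receptor Nr4a2 (-0.85 ± 0.48, or -0.25 without replicate 2) and of the stress factor Atf3 (-0.80 ± 0.30).

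Other programmes had medians nearer to 0. Of 33 XCR1+ DC identity genes 23 were below 0 (69.7%, against 67.3% of the brighter genes), with a median of -0.10. The lowest was Fgd6 at -0.82 ± 0.43, or -0.20 without replicate 2. Xcr1 itself read 11.56, 11.52 and 11.44 in CTRL and 11.47, 11.28 and 11.49 in Ifnar1-KO, and Clec9a, the receptor for dead cells, had a change of -0.20 ± 0.23. The 37 cell cycle genes had a median of -0.08. Their lowest, the kinetochore motor Cenpe, had -1.26 ± 0.84 but -0.06 without replicate 2. MHC class I genes (17) had a median of -0.05 and MHC class II genes (17) -0.02. The lowest of the latter was H2-Eb2, a class II beta chain, at -0.95 ± 0.35, and -0.86 against GF. Costimulators and checkpoint ligands (22) had -0.16 against CTRL and 0.03 against GF. At the low end were Cd274, Tnfsf9 and Tnfrsf4, which are also in the mature DC list. Of the 22, 18.2% were lower at an unadjusted p under 0.05 (2.17% of all genes and 3.6% of the brighter ones). All knockout arrays lay below all CTRL arrays for 31.8% (4.38% of all genes and 8.55% of the brighter ones). Il6, a cytokine of inflammation, had -0.72 ± 0.31 against CTRL and -0.61 against GF.

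Over all genes, the 10 with the smallest unadjusted p in the lower direction were Klra5, Ifi27l2a, Mab21l3, Sik1, Anxa3, Taf1a, Ccdc69, Cpeb2, Cacna1e and Plaat3, with changes from -1.66 to -0.58. Klra5, a Ly49 family receptor whose relatives are nearly identical, read 4.72, 4.56 and 4.40 in CTRL, 3.81, 3.35 and 3.75 in Ifnar1-KO, and 4.01, 3.81 and 3.82 in GF (-0.92 ± 0.13). It was dim, and GF arrays were low too (-0.24 against GF). Sik1, a salt-inducible kinase that restrains CREB targets, read 7.09, 7.32 and 6.81 in CTRL, 5.96, 5.57 and 6.35 in Ifnar1-KO, and 7.07, 6.94 and 6.89 in GF. Its knockout arrays were below both wild-type groups, with -1.11 ± 0.21 against CTRL (adjusted p 0.299) and -1.01 against GF (adjusted p 0.532). Taf1a, a subunit of the RNA polymerase I initiation factor, had the lowest change of the 10 (-1.66 ± 0.36) and -0.12 against GF. Plaat3, a phospholipase, read 8.26 to 8.62 in CTRL, 7.61 to 7.74 in Ifnar1-KO and 7.90 to 8.76 in GF.

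In the higher direction the 10 genes were Cdk20, Rftn2, Slc12a8, Gpr27, Alpi, Skor2, Plscr4, Olfr609, Kif4-ps and Tmem145. They were dim in CTRL, with means of 3.58 to 5.10, and their changes were 0.25 to 0.45, each with an adjusted p of 0.681. This is the range of levels in which most genes read higher in the knockout.

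In mature CCR7+ cells the same genotype comparison called 2 genes (0.0104%), the adhesion receptor Adgre5, which rose by 0.88, and the proteoglycan Gpc1, which fell by 0.61. In CCR7- cells these had changes of -0.16 and 0.02. Ifnar1-KO CCR7+ replicate 2 stood apart: its correlation with the other arrays of its group was at most 0.98, against 0.991 between those. Its thymocyte markers averaged 7.72 against 5.29 to 5.99 in CTRL, with Rag1 at 10.31 and Cd3d at 10.25, and their part in these values was not tested. Without both Ifnar1-KO replicate 2 arrays Adgre5 and Gpc1 no longer passed, while Ecm1 and Ifi27l2a did. Both calls also ended with an intensity trend, with a replicate block and with only autosomal genes tested. Ifi27l2a had -0.77 ± 0.17 in CCR7+ cells (adjusted p 0.715; it passed with array weights as well), at 11.92, 11.88 and 11.88 in CTRL and 11.06, 11.42 and 10.88 in Ifnar1-KO, and Ifi27 had -0.55. Cxcl10 had -0.60, Oas1a -0.13, Oas3 0.27, Irf7 0.73 and Gbp3 0.74, and the median of the type I interferon stimulated list was 0.07. Of its 92 members, 12 were higher and 2 lower at an unadjusted p under 0.05 in CCR7+ cells. Over all 19190 genes 308 were higher and 255 lower. Among the 6196 genes with a mean of at least 6, 190 were higher and 41 lower. The difference of the genotype change between stages was tested for every gene. No gene passed (limma, 0 of 19190, 0%; 858 at an unadjusted p under 0.05, 4.47%), the lowest adjusted p being 0.837. For Ifi27l2a the difference between stages was -0.34 ± 0.24 (95% interval -0.85 to 0.17). Without both Ifnar1-KO replicate 2 arrays, and with the random block, the count of genes called for this difference was again 0.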

How the data were processed

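Thymic XCR1+ DCs were measured on 18 Affymetrix mouse whole-transcript arrays, 3 per group. Per the labels' protocols, amounts between 0.7 and 7.3 ng of RNA were amplified with a NuGEN whole-transcriptome kit. The authors deposited log2 intensities, made with RMA and oligo per the submitters' processing notes. Their versions and the genome build are not stated there. Low input and whole-transcriptome amplification can add spread between arrays. An array has no read depth; the number of arrays limits the precision.

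Of 35556 probesets, 21789 had exactly 1 symbol, 1621 several and 12146 none. The probeset with the highest mean stood for each gene (999 genes had more than 1). Limma 3.58.1 (R 4.3.3) estimated the group means over all 18 arrays (12 residual degrees of freedom, 14.4 after eBayes), and p-values were adjusted over 19938 genes by the Benjamini-Hochberg method. The 748 genes on X or Y were then left out. No array was dropped and values were not normalised again. The functions were tested on simulated data.

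The members, gene lists and tests were chosen with earlier results of these data known. Named are Ifnar1, Ifi27l2a, Cxcl10 and the 10 genes per direction with the smallest p. The naming rule also takes the 3 members at either end of each list, of which only some are described. Others, such as Rtp4, Usp18 and Ifi27l2b, were named after their values were seen. Promoter windows came from a RefSeq table (GRCm38.p6). The codes of 1 CTRL, 2 Ifnar1-KO and all GF CCR7- arrays carry a final r of unstated meaning. Replicate numbers did not pair Ifnar1-KO with CTRL CCR7- arrays (correlations of deviations -0.229, -0.000431 and -0.0326), but CCR7- and CCR7+ arrays of 1 background deviated together by number (0.184, 0.143 and 0.101 in CTRL, 0.279, 0.319 and 0.235 in Ifnar1-KO), which the random block takes up. Alternatives were an intensity trend, array weights, a level filter, median centring, the mean of all probesets, fewer groups or genes in the fit, a replicate block, a random block, that final r as a covariate, and the removal of arrays. The fit of only the 9 CCR7- arrays was added after the data were seen.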

Additional observations from a re-analysis of the deposited data

Results flagged for a closer look

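Eif2s3y, a Y-linked gene left out of the comparison, had a mean of 6.05 on the Ifnar1-KO CCR7- arrays (5.22 to 6.83) against 3.41 on the CTRL CCR7- arrays (3.36 to 3.47). It stands here because it is a signal above the level of the control arrays in genes that the comparison does not use. Kdm5d, also Y-linked, had means of 5.27 and 4.11. Single values were not screened for an outlying array, since that needs groups larger than 3. Limma called 0 genes for a difference of the genotype change between CCR7- and CCR7+ cells at an adjusted p under 0.05 (858 at an unadjusted p under 0.05).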

How the results depend on the processing

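Counts of genes called depended on the fit. For Ifnar1-KO minus CTRL in CCR7- cells the count of 0 became 2 with an intensity trend, with arrays centred on their medians and with a random block (Ifi27l2a and Klra5 each time), 4 with array weights (also Anxa3 and Mab21l3), 1 without both Ifnar1-KO replicate 2 arrays (Ifi27l2a), and 0 to 2 with single arrays left out. Genes at an unadjusted p under 0.05 numbered 571 without Ifnar1-KO CCR7- replicate 2 and 2510 without replicate 3. In CCR7+ cells the count of 2 became 0 with an intensity trend, only the groups compared, the replicate block, the trailing r or only autosomal genes, 1 with median centring or a level filter, 4 with array weights, and 0 to 6 with arrays left out. For Ifnar1-KO minus GF the count of 1 became 0 with only the groups compared or only the 9 CCR7- arrays, and 0 to 8 with arrays left out. For GF minus CTRL the count of 0 became 1 with an intensity trend, 3 with array weights or without both Ifnar1-KO replicate 2 arrays, and 0 to 36 with arrays left out. The difference between stages kept 0 calls in all alternatives run. The replicate block, whose numbers did not pair Ifnar1-KO with CTRL, gave 0 calls in CCR7- cells (lowest adjusted p 0.078). Irf7 turned sign with array weights (0), median centring (-0.01) and arrays left out (-0.06 to 0.14), all within its SE. The other genes followed through these alternatives kept their sign, Slfn9 (0.11 without Ifnar1-KO CCR7- replicate 2) was not among them, and the cell cycle median ranged from -0.15 to 0.04 with arrays left out. The GBP and IRG median of -0.25 was -0.36 with a level filter, -0.15 with the trailing r and -0.27 to -0.18 with arrays left out. The causes of these shifts were not tested. Signal over background limits what the dim genes show.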
